A study of Mus musculus with 8 samples.

Results

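The 9 genes described here act around the glucocorticoid corticosterone inside a cell. Hsd11b1, Hsd11b2, H6pd, Fdx1 and Fdxr take part in making or inactivating the hormone, and Nr3c1, Fkbp5, Tsc22d3 and Per1 in sensing it or answering to it. They were picked by symbol from a table of 14971 genes with a symbol, in which all 9 were listed. All 9 also passed the filter on low counts, among 14184 genes tested. RNA was sequenced from GPR35-positive and GPR35-negative macrophages, sorted as MHCII+CD64+ cells out of colon lamina propria, in 4 male mice, after the epithelium had been stripped with EDTA. GPR35 is a G protein-coupled receptor, and the labels do not say how it was detected in the sort. Each animal gave both populations, so replicates 1 to 4 are 4 animals and the 8 libraries form 2 groups of 4. The labels give no strain, age or treatment, and nothing that the groups differ in besides the sort.

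Corticosterone is the main glucocorticoid of mice and comes largely from the adrenal cortex, but the gut also makes it locally. Cells without a full synthesis chain can still raise their own level through the enzyme encoded by Hsd11b1, which turns inert 11-dehydrocorticosterone back into corticosterone in the endoplasmic reticulum. The hormone binds the glucocorticoid receptor, Nr3c1, which leaves its chaperones, enters the nucleus and switches on genes such as Fkbp5, Tsc22d3 and Per1, and in macrophages dampens inflammatory output.

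The sort and the cell content of the libraries were read first. Gpr35 was at 56.3 to 91.9 CPM (counts scaled to library size and TMM factor) in the GPR35-positive libraries, against 1.13 to 4.69 CPM in the GPR35-negative libraries. Total counts were 33776161 to 48609595 in the positive and 15999301 to 30071863 in the negative libraries. The labelled macrophage identity was clear in the positive libraries and weaker in the negative ones: 20 macrophage markers summed to 48160 to 57150 CPM in positive and 5158 to 23560 CPM in negative libraries. Csf1r, the receptor for the macrophage growth factor, was at 3918 to 4640 CPM against 412 to 2545 CPM. Markers of several other cell types summed lower in positive libraries. The 12 listed B and plasma cell markers summed to 1363 to 2784 CPM in positive and 73590 to 144000 CPM in negative libraries, and no marker of that list was at 0 in all libraries of a group. The 18 stromal, endothelial and muscle markers summed to 1263 to 2596 CPM against 5865 to 12430 CPM. The 14 T and innate lymphoid markers summed to 57.4 to 70.5 CPM against 353.7 to 636.3 CPM, and the 12 epithelial markers to 103.5 to 185.7 CPM against 234.3 to 718.3 CPM. Of the T and innate lymphoid markers, Cd28 and Cd2 were highest in negative libraries, with means of 253.8 and 140.8 CPM. The CD3 subunits of the T cell receptor complex, Cd3d, Cd3e and Cd3g, were at only 3.21, 4.97 and 7.24 CPM there. Il7r alone had a higher mean in positive libraries, at 30.9 against 17.1 CPM, and did not pass the threshold used below. The 9 dendritic cell markers instead summed higher in positive libraries, at 137.1 to 490.4 CPM against 70.4 to 95.6 CPM. The granulocyte and mast cell sums overlapped, at 130.2 to 179.9 CPM against 119.9 to 234 CPM, with the mast cell protease Mcpt4 at 0 in all positive libraries. Single markers behind that overlap went opposite ways. Prg2 was at 1.36 ± 0.549 CPM in positive and 100.8 ± 53.9 CPM in negative libraries, and Csf3r at 127.1 ± 25.0 against 24.2 ± 23.1 CPM (SD, n = 4 each). The 9 glial, neuronal and erythroid markers summed to 200.6 to 999.7 CPM against 775 to 5711 CPM, which also overlapped. In such bulk samples, fewer cells of a type and less RNA per cell cannot be told apart, and the groups differed in these markers in every comparison below.

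Of the 9 genes, H6pd was higher and Hsd11b1 and Fdx1 were lower in GPR35-positive cells, and the other 6 did not pass the threshold (edgeR quasi-likelihood test, Benjamini-Hochberg adjusted p under 0.05). Over all tested genes 38% passed, 18.5% as higher and 19.5% as lower, so the count of members was near that background. With the animal as a block the same 3 genes passed in the same directions, beside 39.4% of all genes (19.4% higher, 20% lower). Every member that passed belonged to the genes that make or inactivate the hormone. The receptor and its 3 response genes had a median log2 fold change of 0.07, beside -0.05 for all tested genes. A difference between these groups of members was not tested. The median of the 5 genes that make or inactivate the hormone was -1.05, the value of Fdx1. Hsd11b1 and Hsd11b2 lay below it, and Fdxr and H6pd were above 0. CPM ranges of the groups did not overlap for Hsd11b1, H6pd, Fdx1 and Fkbp5, with H6pd higher and the other 3 lower, beside 42.1% of all tested genes whose groups did not overlap (21.5% higher, 20.6% lower).

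**Figure D1:**
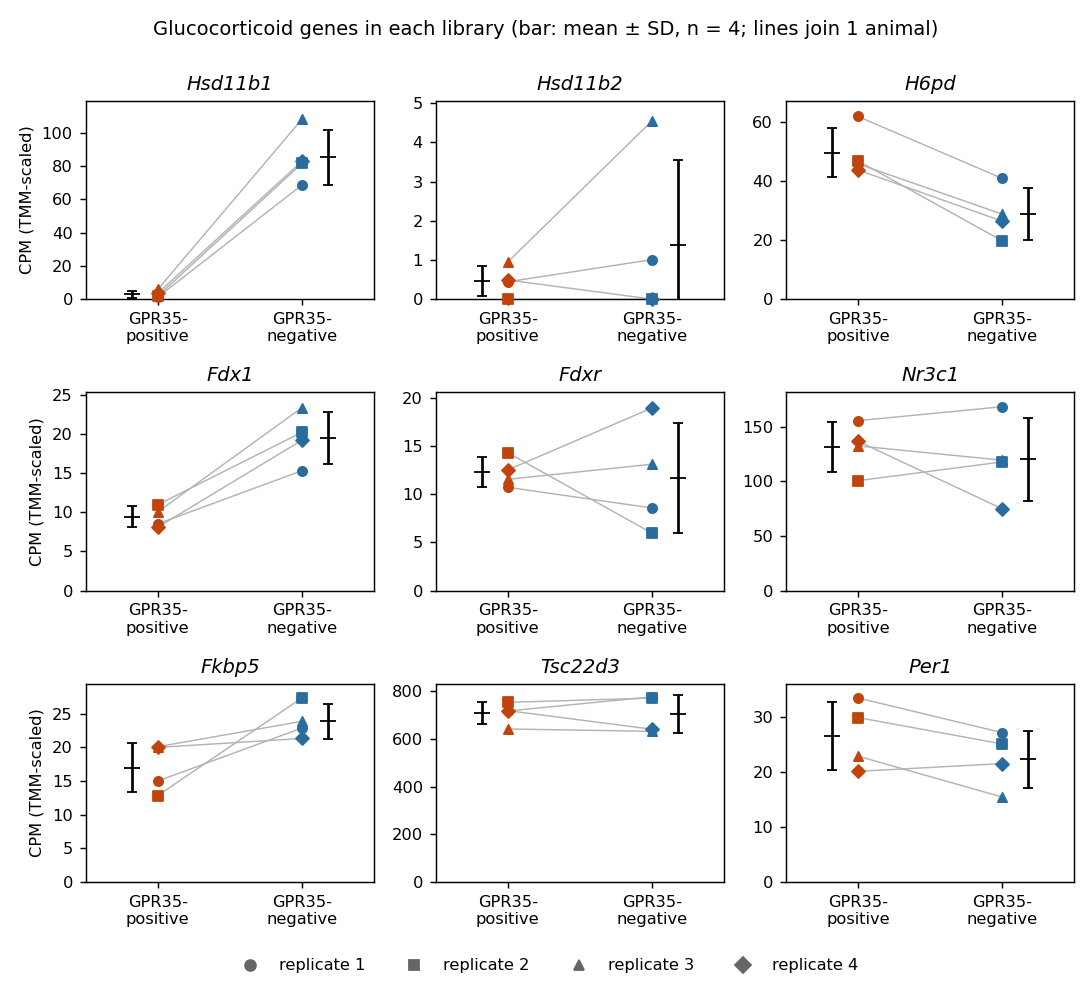
TMM-scaled CPM (y axis, from 0) of the 9 glucocorticoid genes in GPR35-positive and GPR35-negative libraries, with a grey line joining the libraries of 1 animal and bars for mean ± SD (n = 4, the bar of Hsd11b2 in negative libraries stopping at 0). Hsd11b1 lay between 1.17 and 5.82 CPM in positive libraries and between 68.7 and 108.3 CPM in negative libraries, while Nr3c1, Tsc22d3, Per1 and Fdxr overlapped.

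Hsd11b1 (Entrez ID 15483) spans bases 193221640 to 193264045 of chromosome 1 in GRCm38.p6 and encodes 11-beta-hydroxysteroid dehydrogenase type 1, which in cells with enough NADPH in the endoplasmic reticulum regenerates corticosterone. It was at 1.17, 1.77, 5.82 and 3.49 CPM in GPR35-positive replicates 1 to 4, against 68.7, 81.7, 108.3 and 83.0 CPM in GPR35-negative replicates 1 to 4. Every positive library was far below every negative one, with replicate 3 the highest of both groups. The means were 3.06 ± 2.08 CPM in positive and 85.5 ± 16.5 CPM in negative libraries (SD, n = 4 each). Its log2 fold change of -4.80 ± 0.50 (SE; 95% interval -5.92 to -3.67; edgeR adjusted p = 2.58e-04) made it 27.8-fold lower in positive cells. Within the 4 animals the log2 CPM difference was -5.81, -5.48, -4.20 and -4.55. Raw counts of 50, 53, 233 and 143 in the positive libraries showed that the transcript was low but not absent there. The call held in every fit that left out an animal or a library, with values from -5.31 to -4.52 and an adjusted p of at most 6.19e-03.

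Scaling every library to the macrophage identity markers moved the median of all genes to -2.72 and left Hsd11b1 at -7.54, or -4.82 relative to that median. With library size as the only scaling the median of all genes was -0.34, with 1692 genes higher and 4193 lower, beside 2617 higher and 2769 lower with TMM.

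The level of Hsd11b1 lay beside markers of other cells that moved in the same direction. Dcn, the stromal proteoglycan decorin, was at 73.0, 41.2, 157.4 and 104.0 CPM in positive replicates 1 to 4, against 923.1, 1166, 1199 and 1551 CPM in negative ones. Jchain, the joining chain of secreted antibodies, was at 1382, 665.7, 2073 and 1823 CPM against 67768, 134300, 100420 and 93792 CPM. Epcam, an epithelial adhesion molecule, was at 8.19 to 14.7 CPM against 79.9 to 126.5 CPM. Epcam does not stand for all epithelial markers. Of the 12 listed, 3 were lower, Epcam among them, and 9 did not pass the threshold. Among those 9, Cdh1 and Vil1 had log2 fold changes above 0, at 0.52 and 0.42. In positive libraries Hsd11b1, Dcn and Jchain each had their highest value in replicate 3, and Epcam in replicate 4. In negative libraries the highest value was in replicate 3 for Hsd11b1 and Epcam, replicate 4 for Dcn and replicate 2 for Jchain. Per length, the log2 ratio of Hsd11b1 to Dcn was -4.46 ± 0.62 in positive and -3.28 ± 0.31 in negative libraries, and the ranges did not overlap. The log2 ratio of Hsd11b1 to Jchain was -8.49 ± 0.78 in positive and -9.61 ± 0.37 in negative libraries, with ranges that overlapped. On average the difference in Hsd11b1 was thus larger than that in Dcn and smaller than that in Jchain. These ratios were chosen after the values were seen, and the part of other cells in the difference was not tested.

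**Figure D2:**
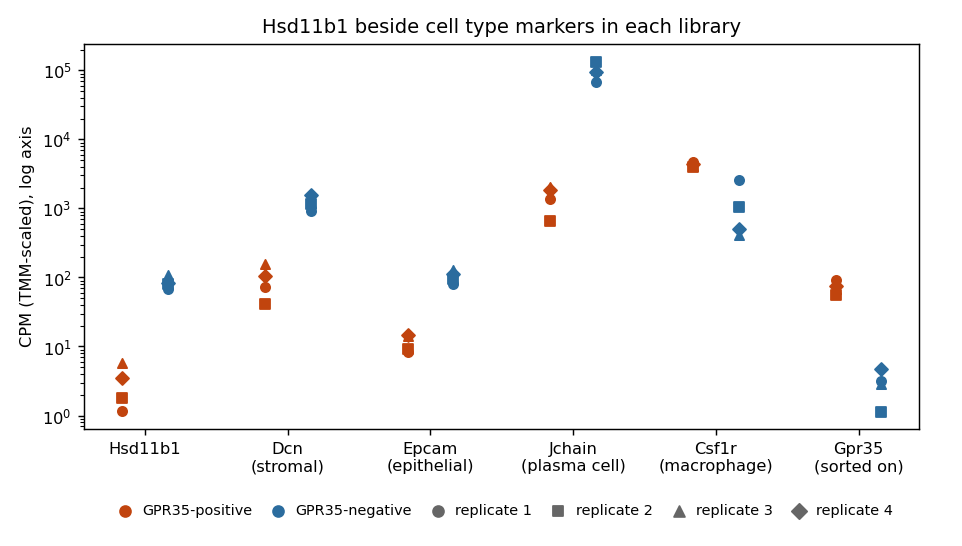
TMM-scaled CPM on a log axis of Hsd11b1 and of 1 marker each of stromal, epithelial, plasma and macrophage cells, with Gpr35, in the 4 GPR35-positive and 4 GPR35-negative libraries (marker shape gives the replicate). Hsd11b1, Dcn, Epcam and Jchain were lower in every positive library than in every negative one, and Csf1r and Gpr35 lay above.

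The tested genes whose centred log2 CPM profile over the 8 libraries was most like that of Hsd11b1 were Tesc, Ikzf3 and Slc1a4, with root mean square differences of 0.25, 0.30 and 0.30 log2 units. Tesc, which encodes the calcium-binding protein tescalcin, was at 0.513 ± 0.297 CPM in positive and 13.8 ± 3.20 CPM in negative libraries. Ikzf3, which encodes the lymphoid transcription factor Aiolos, was at 3.22 ± 2.37 CPM against 101.3 ± 29.99 CPM. Slc1a4, a neutral amino acid transporter, was at 1.86 ± 1.59 CPM against 39.5 ± 0.711 CPM (SD, n = 4 each).

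Hsd11b2 (chromosome 8, 105518746 to 105523988) encodes the opposing enzyme, which inactivates corticosterone and in the colon is known from epithelium. It was at 0.443, 0, 0.949 and 0.488 CPM in GPR35-positive replicates 1 to 4, and at 1.01, 0, 4.56 and 0 CPM in GPR35-negative ones. The gene was thus at 0 counts in 1 positive and 2 negative libraries, where a count of 0 allows up to 0.100 CPM in positive replicate 2 and up to 0.178 and 0.0997 CPM in negative replicates 2 and 4 (3 counts per library, counting error only). The log2 fold change was -1.55 with an interval from -5.44 to 2.33 (edgeR adjusted p = 0.50), so a difference was not detectable at this depth. It changed sign to 0.45 without negative replicate 3, the library with the highest level.

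H6pd (chromosome 4, 149979474 to 150009023) encodes hexose-6-phosphate dehydrogenase, which makes the NADPH that the type 1 enzyme needs to work as a reductase. It was at 62.0, 47.0, 46.0 and 43.9 CPM in GPR35-positive replicates 1 to 4, against 41.0, 19.8, 28.9 and 26.5 CPM in GPR35-negative ones. All 4 positive libraries lay above all 4 negative ones, and in each group replicate 1 was the highest. H6pd was 1.71-fold higher (log2 0.77 ± 0.23, SE; edgeR adjusted p = 0.0259), and higher in 4 of 4 animals. The call was lost without replicate 2, 3 or 4 (adjusted p = 0.0664, 0.0931 and 0.0913). It was also lost without positive replicate 1 (0.0750) and without negative replicate 3 or 4 (0.0579 and 0.0587). With library size alone the value was 0.48 (adjusted p = 0.12), and with identity scaling it turned to -1.81, which is 0.91 above the median of all genes.

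Relative to H6pd in the same library, and per length, Hsd11b1 stood at log2 ratios of -3.88, -2.90, -1.19 and -1.85 in positive replicates 1 to 4. In negative replicates 1 to 4 the ratios were 2.52, 3.82, 3.68 and 3.42. The Hsd11b1 transcript was therefore below that of H6pd in every positive library and above it in every negative one. This comparison does not depend on scaling between libraries, but it does depend on the mix of cells. Bulk counts do not show whether both transcripts came from the same cells, and enzyme levels were not measured.

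Fdx1 and Fdxr form the mitochondrial electron relay in which ferredoxin reductase passes electrons to ferredoxin and ferredoxin to mitochondrial cytochrome P450 enzymes, among them those of steroid synthesis. Fdx1 (chromosome 9, 51943023 to 51963602) was at 8.54, 10.98, 10.1 and 8.10 CPM in GPR35-positive replicates 1 to 4, against 15.3, 20.3, 23.4 and 19.2 CPM in GPR35-negative ones. The groups did not overlap. Fdx1 was 2.08-fold lower in positive cells (log2 -1.05 ± 0.20, SE; edgeR adjusted p = 4.07e-03) and lower in 4 of 4 animals. The call held in each leave-out fit, with values from -1.15 to -0.96 and an adjusted p of at most 0.0367, and identity scaling gave -3.80, or -1.08 relative to the median of all genes.

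Fdxr (chromosome 11, 115268024 to 115277101) was at 10.7, 14.3, 11.5 and 12.5 CPM in positive replicates 1 to 4, and at 8.56, 5.94, 13.1 and 18.9 CPM in negative ones. The negative libraries spread wider than the positive ones and enclosed them. Its log2 fold change was 0.07 with an interval from -0.71 to 0.85 (edgeR adjusted p = 0.88). It took either sign across the leave-out fits (-0.17 to 0.41). The log2 ratio of Fdx1 to Fdxr, per length, was -1.26 ± 0.18 in positive and -0.02 ± 0.71 in negative libraries, and the ranges did not overlap. Genes with profiles most like Fdx1 were Pradc1, Ormdl3, a regulator of sphingolipid synthesis, and Pabpc4, a poly(A)-binding protein, with root mean square differences of 0.12, 0.13 and 0.13 log2 units over the 8 libraries. Ormdl3 was at 31.5 ± 2.13 CPM in positive and 68.6 ± 6.23 CPM in negative libraries.

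Promoter windows are shown for the 3 genes that passed the test, to give the sequence next to their start sites. Windows were taken from RefSeq (GRCm38.p6, 250 bases before to 50 after a listed start), in which 7 of the 9 genes were matched on chromosomes used here. Capitals mark, on either strand, the C/EBP core TTNCNNAA, the CCAAT box, the GC box GGGCGG, the E-box CACGTG, or AGAACA, 1 arm of the glucocorticoid response element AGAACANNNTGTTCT. C/EBP factors are known regulators of Hsd11b1. The Hsd11b1 and H6pd starts lie inside the span of their genes. The Hsd11b1 window is chr1:193242311-193242610, the H6pd window chr4:150003187-150003486 and the Fdx1 window chr9:51963553-51963852, all on the minus strand.
Hsd11b1: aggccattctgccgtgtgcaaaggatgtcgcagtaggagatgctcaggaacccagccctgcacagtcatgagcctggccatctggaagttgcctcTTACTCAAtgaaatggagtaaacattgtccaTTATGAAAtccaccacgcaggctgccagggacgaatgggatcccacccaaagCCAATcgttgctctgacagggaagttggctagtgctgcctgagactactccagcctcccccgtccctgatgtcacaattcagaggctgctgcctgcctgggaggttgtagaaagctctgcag
H6pd: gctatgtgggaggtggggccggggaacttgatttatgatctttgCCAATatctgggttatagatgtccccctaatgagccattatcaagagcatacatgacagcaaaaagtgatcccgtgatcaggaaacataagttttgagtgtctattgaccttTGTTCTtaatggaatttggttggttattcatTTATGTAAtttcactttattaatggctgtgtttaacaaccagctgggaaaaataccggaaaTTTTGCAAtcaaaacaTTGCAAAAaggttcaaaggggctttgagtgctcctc
Fdx1: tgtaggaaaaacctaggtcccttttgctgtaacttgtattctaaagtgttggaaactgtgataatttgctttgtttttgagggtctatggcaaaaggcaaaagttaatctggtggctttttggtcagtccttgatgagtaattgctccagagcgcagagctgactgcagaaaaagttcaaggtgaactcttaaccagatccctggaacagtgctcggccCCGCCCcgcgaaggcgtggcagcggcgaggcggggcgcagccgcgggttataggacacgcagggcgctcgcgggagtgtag
The Hsd11b1 window held 2 C/EBP cores, the first bases at -155 and -124 from the start, and a CCAAT box at -72. The H6pd window held 3 C/EBP cores, a CCAAT box at -206 and 1 arm of the response element, read as TGTTCT, at -94. The Fdx1 window held only a GC box, read as CCGCCC, at -31. None of the marked matches overlapped another. Of 32851 RefSeq windows of this length 40.7% held the C/EBP core, 37.4% the CCAAT box, 35.7% the GC box, 7.15% the E-box and 19% 1 arm of the response element. Such matches are a description of the letters, not evidence of binding.

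Neither the receptor nor any of its 3 response genes passed the test. Nr3c1 (chromosome 18, 39410545 to 39519421), the glucocorticoid receptor, was at 155.7, 100.7, 132.6 and 136.9 CPM in GPR35-positive replicates 1 to 4, and at 168.5, 117.9, 119.5 and 74.9 CPM in GPR35-negative ones. The groups overlapped, with negative replicate 1 the highest library and negative replicate 4 the lowest. Between populations the log2 fold change was 0.13, with an interval from -0.41 to 0.67 (edgeR adjusted p = 0.69), and it took either sign across the leave-out fits (-0.06 to 0.34). The related mineralocorticoid receptor Nr3c2, which also binds corticosterone, was at 0.907 ± 0.545 CPM in positive and 1.86 ± 1.01 CPM in negative libraries and did not pass (adjusted p = 0.32). Zfc3h1 and Zfp644 were among the 3 genes with profiles most like that of Nr3c1, with root mean square differences of 0.10 and 0.12 log2 units.

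Tsc22d3 (chromosome X, 140539528 to 140600522) encodes the glucocorticoid-induced leucine zipper, an anti-inflammatory target of the receptor. It was at 716.8, 752.9, 641.3 and 718.2 CPM in GPR35-positive replicates 1 to 4, and at 776.2, 770.9, 631.4 and 640.2 CPM in GPR35-negative ones. The means were 707.3 ± 47.1 and 704.7 ± 79.6 CPM (SD, n = 4 each). At a log2 fold change of 0.01, it had an interval from -0.29 to 0.31 (edgeR adjusted p = 0.98), the narrowest interval of the 9 genes. Its sign turned under several scalings, the lowest value outside identity scaling being -0.28 with library size alone.

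Fkbp5 (chromosome 17, 28398753 to 28486149) encodes an immunophilin co-chaperone that the receptor induces and that in turn lowers the receptor's affinity for hormone. It was at 14.98, 12.8, 20.1 and 19.98 CPM in GPR35-positive replicates 1 to 4, against 22.9, 27.3, 23.9 and 21.3 CPM in GPR35-negative ones. All positive libraries lay below all negative ones, with a gap of little over 1 CPM between the highest positive and the lowest negative. Its log2 fold change of -0.49 ± 0.19 (SE; 95% interval -0.93 to -0.05), below 0 in 4 of 4 animals, did not pass after adjustment (edgeR adjusted p = 0.0742). It passed as lower with DESeq2 (-0.52, adjusted p = 0.0349), upper-quartile scaling (-0.63, 0.0345), library size alone (-0.77, 0.0155) and the filter of 5 CPM (-0.57, 0.0411). Mef2c, a transcription factor of muscle and immune cells, Mcm7, a replication helicase subunit, and AI467606 had the closest profiles, with root mean square differences of 0.12, 0.13 and 0.14 log2 units.

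Per1 (chromosome 11, 69095108 to 69109965) encodes a repressor of the circadian clock that glucocorticoids induce rapidly. It was at 33.5, 29.96, 22.9 and 20.1 CPM in GPR35-positive replicates 1 to 4, and at 27.2, 25.1, 15.5 and 21.6 CPM in GPR35-negative ones. The populations overlapped, and the level was higher in the positive library of 3 of 4 animals. Its log2 fold change was 0.25 with an interval from -0.27 to 0.78 (edgeR adjusted p = 0.41).

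**Figure D3:**
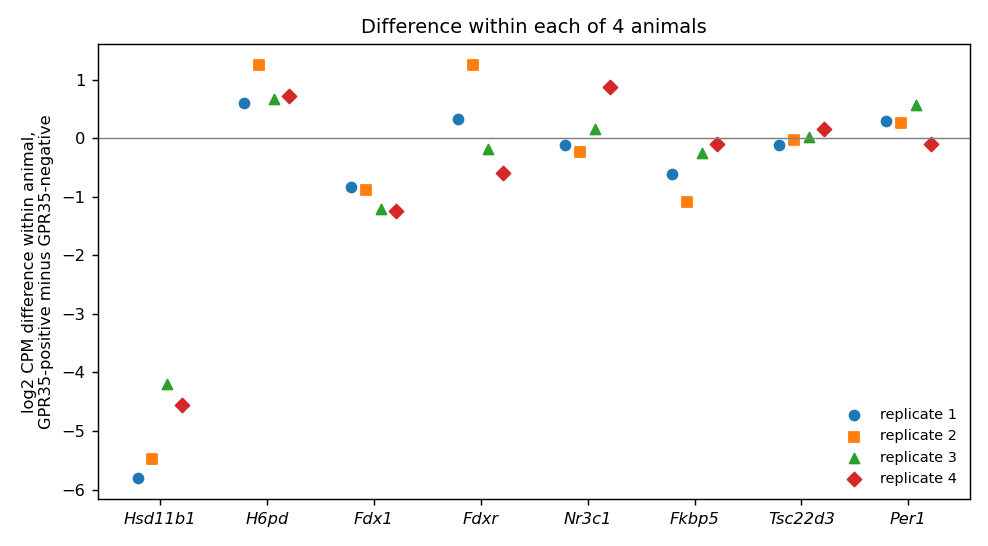
Difference in log2 CPM between the GPR35-positive and the GPR35-negative library of each of 4 animals (y axis, 1 point per animal) for 8 of the genes, with Hsd11b2 left out because of counts of 0. Hsd11b1 lay between -5.81 and -4.20, Fdx1 and Fkbp5 were below 0 and H6pd above 0 in 4 of 4 animals, and Tsc22d3 lay within 0.17 of 0.

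Promoter windows of Fkbp5 and of 1 start of Tsc22d3 are given because both genes are standard readouts of the receptor. They lie at chr17:28486100-28486399 and chrX:140600473-140600772 on the minus strand, with capitals as above.
Fkbp5: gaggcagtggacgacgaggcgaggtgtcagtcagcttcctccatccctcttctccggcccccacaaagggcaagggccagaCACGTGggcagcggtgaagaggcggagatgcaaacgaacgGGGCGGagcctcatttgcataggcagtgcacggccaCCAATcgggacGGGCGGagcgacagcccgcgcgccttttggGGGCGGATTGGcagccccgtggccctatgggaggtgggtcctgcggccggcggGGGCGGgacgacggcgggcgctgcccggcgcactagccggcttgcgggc
Tsc22d3: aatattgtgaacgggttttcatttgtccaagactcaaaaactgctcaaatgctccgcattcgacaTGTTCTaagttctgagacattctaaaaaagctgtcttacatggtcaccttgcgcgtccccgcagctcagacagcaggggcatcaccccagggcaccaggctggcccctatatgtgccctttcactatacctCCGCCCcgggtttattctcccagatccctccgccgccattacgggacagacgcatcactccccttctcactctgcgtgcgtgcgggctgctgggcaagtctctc
Neither window held the whole response element, which stood in 3 of the 32851 windows, or 0.00913%. The Tsc22d3 window held 1 arm of it, read as TGTTCT, at -185, and a GC box, read as CCGCCC, at -54. RefSeq lists 3 starts of Tsc22d3, and the windows of the other 2 held neither the arm nor the whole element. The Fkbp5 window held an E-box at -169, GC boxes at -129, -82, -52 and 2, and CCAAT boxes at -93 and, read as ATTGG, at -46. No match says only that these letters are not in this window.

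Measured against the receptor in the same library, per length, the response genes also overlapped between populations. The log2 ratio of Tsc22d3 to Nr3c1 was 3.70 ± 0.32 in positive and 3.86 ± 0.39 in negative libraries. That of Per1 to Nr3c1 was -1.88 ± 0.44 and -1.97 ± 0.50, and that of Fkbp5 to Nr3c1 was -2.25 ± 0.30 and -1.57 ± 0.45 (SD, n = 4 each).

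Set in order of level per length, the genes ranked differently in the populations mainly through Hsd11b1. In GPR35-positive cells Tsc22d3 led at 267.1 ± 17.8 CPM per kb, followed by Nr3c1 at 20.8 ± 3.61 and H6pd at 10.0 ± 1.68. Then came Fdxr at 6.57 ± 0.826, Per1 at 5.67 ± 1.31, Fkbp5 at 4.37 ± 0.939, Fdx1 at 2.74 ± 0.389, Hsd11b1 at 2.12 ± 1.44 and Hsd11b2 at 0.254 ± 0.210 CPM per kb. Neighbours whose libraries overlapped were Fdxr with Per1, Per1 with Fkbp5, and Fdx1 with Hsd11b1. In GPR35-negative cells Tsc22d3 was at 266.1 ± 30.1 CPM per kb and Hsd11b1 was second at 59.1 ± 11.4, ahead of Nr3c1 at 19.0 ± 6.05. Fdxr at 6.24 ± 3.06, Fkbp5 at 6.14 ± 0.658, H6pd at 5.86 ± 1.79, Fdx1 at 5.69 ± 0.968 and Per1 at 4.76 ± 1.09 overlapped one another there, and Hsd11b2 was last at 0.752 ± 1.17 CPM per kb.

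Against the macrophage identity markers of the same library, each of the 8 genes with counts in all libraries had a lower ratio in GPR35-positive cells. The log2 ratio difference was -7.48 for Hsd11b1, -3.51 for Fdx1 and -2.98 for Fkbp5. It was between -2.46 and -2.21 for Tsc22d3, Nr3c1, Fdxr and Per1, and -1.66 for H6pd, and the ranges did not overlap for any of the 8. All 20 markers were themselves higher in positive libraries, so a gene at equal CPM in both populations also has a lower ratio there. The share of all genes whose ratio ranges did not overlap was not counted. With identity scaling in the test, all 9 genes passed as lower, beside 87.4% of all tested genes. This scaling sets the macrophage markers level between populations, so the genes are given relative to the median of all genes at -2.72. Hsd11b1, Hsd11b2, Fdx1, Fkbp5 and Fdxr lay below it, and Tsc22d3, Nr3c1, Per1 and H6pd above it.

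**Figure D4:**
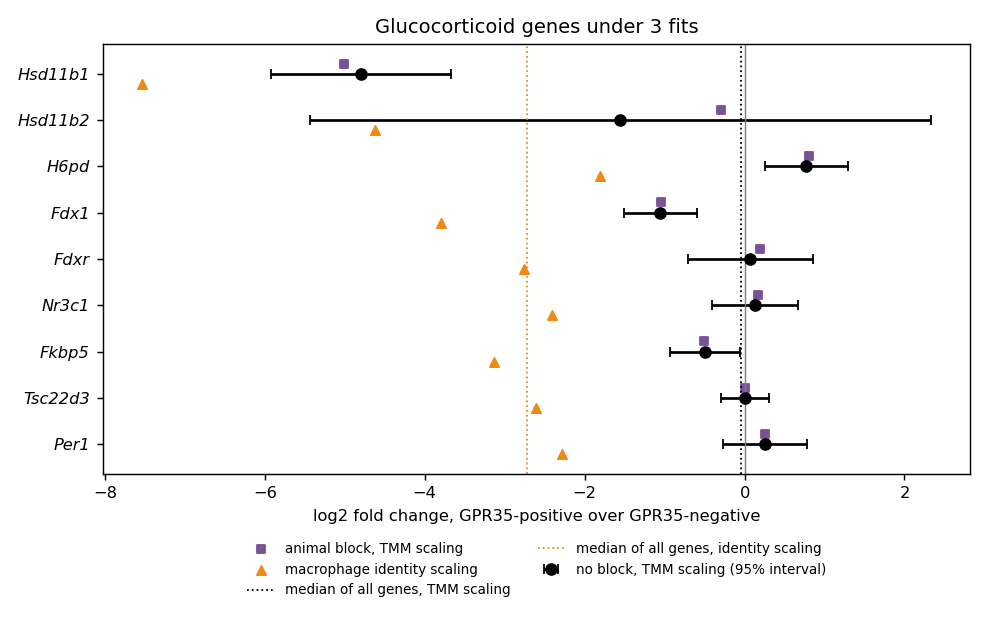
Log2 fold change (GPR35-positive over GPR35-negative) of the 9 genes with TMM scaling and no animal block (black, 95% interval), with the animal as a block (squares) and with scaling to macrophage identity markers (triangles), beside the median of all genes in each scaling (dotted lines, -0.05 and -2.72). Hsd11b1 and Fdx1 lay below, and H6pd above, the median of all genes in both scalings.

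The rest of the pathway was read from lists of 105 other genes, of which 86 were in the table and 84 were tested. Of these 36 were higher and 13 lower in GPR35-positive cells, beside 18.5% higher and 19.5% lower over all tested genes. The lists were chosen with earlier results of these data known, so these shares are described and were not tested. With identity scaling only the list of glucocorticoid-induced genes still had a higher gene, with 1, beside 0.451% of all tested genes. Counts were low for both steps of early steroid synthesis described next. Cyp11a1, the side-chain cleavage enzyme that opens steroid synthesis, had 0 counts in all 4 positive libraries, where a count of 0 allows up to 0.0700 to 0.100 CPM. In negative replicates 1 to 4 it had 13, 0, 10 and 54 counts, and it did not pass the filter. Star, which brings cholesterol to the inner mitochondrial membrane, was at 1.01 ± 0.387 CPM in positive and 1.02 ± 0.842 CPM in negative libraries. Cyp11b1, Cyp21a1, Hsd3b1 and Nr5a2, a nuclear receptor that drives intestinal steroid synthesis, were not analysed here.

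Among the 11 tested genes of steroid synthesis and its regulators, 5 were higher and 1 lower, beside 18.5% and 19.5% over all genes (median 0.18, beside -0.05). Among the 5 that were higher, Soat1, Stard3, Lipe and Scarb1 handle cholesterol or its esters. Scarb1 lost its call in 8 of 12 leave-out fits (adjusted p from 0.0571 to 0.1225) and Lipe in 1 (0.0616). Soat1, which esterifies cholesterol, was at 203.8 ± 32.9 against 37.0 ± 18.5 CPM, a log2 change of 2.46 ± 0.32 (edgeR adjusted p = 7.36e-04). The cholesterol transporter Stard3 was at 99.6 ± 9.67 against 50.1 ± 13.6 CPM. Cyb5a, cytochrome b5, was lower at 87.1 ± 12.7 against 147.1 ± 30.9 CPM, a call lost without replicate 3 (adjusted p = 0.0646). Without replicate 3 the list had 3 higher and 0 lower. Calls over all genes also fell in that fit, from 2617 to 1572 higher and from 2769 to 1712 lower.

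Of the partners of the ferredoxin relay, Cyp27a1, the mitochondrial sterol 27-hydroxylase, was at 203.0 ± 24.6 CPM in positive and 68.0 ± 47.4 CPM in negative libraries (log2 1.58 ± 0.45, edgeR adjusted p = 0.0222). Its call was lost without replicate 2, 3 or 4, positive replicate 1 or negative replicate 2 (adjusted p from 0.0506 to 0.0835). Fdx1l, the second mitochondrial ferredoxin, was lower at 14.1 ± 1.501 against 20.4 ± 2.37 CPM (-0.53 ± 0.17, adjusted p = 0.0352), a call lost in 11 of 12 leave-out fits, the exception being that without negative replicate 1. Cyp27b1, which activates vitamin D, had 0, 0, 0 and 1 counts in positive and 19, 0, 6 and 67 counts in negative replicates 1 to 4.

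Of 7 tested genes that supply glucose-6-phosphate and NADPH, 3 were higher and 1 lower, beside 18.5% and 19.5% over all genes. Pgd and G6pdx, the NADPH-making steps of the cytosolic pentose phosphate pathway, were at 158.1 ± 3.47 against 67.4 ± 15.4 CPM and at 150.8 ± 12.9 against 76.5 ± 14.9 CPM. Their log2 changes were 1.23 ± 0.17 and 0.98 ± 0.16 (edgeR adjusted p = 8.51e-04 and 1.82e-03). Slc37a2, a sugar phosphate exchanger of macrophages, was higher (139.7 ± 23.4 against 29.8 ± 19.6 CPM) and its relative Slc37a1 lower (14.1 ± 1.62 against 32.0 ± 8.38 CPM). Slc37a4, the transporter that feeds H6pd with glucose-6-phosphate, was at 26.1 ± 0.787 CPM in positive and 20.7 ± 6.24 CPM in negative libraries and did not pass (adjusted p = 0.27).

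Of 8 tested genes of corticosteroid clearance, binding and export, 1 was higher and 2 lower, a share near the 38% called over all genes. Srd5a3, of the steroid reductase family, was higher at 56.7 ± 7.29 against 30.5 ± 7.20 CPM. Abcb1b, a steroid-exporting pump, was lower at 40.5 ± 4.18 against 56.2 ± 7.34 CPM (edgeR adjusted p = 0.0247). It lost its call without replicate 2, 3 or 4, positive replicate 2, 3 or 4, or negative replicate 2 (adjusted p from 0.0631 to 0.149). Sult2b1, a sterol sulfotransferase, was at 0.718 ± 0.255 against 2.39 ± 1.11 CPM (adjusted p = 0.0498). Its call was lost with the animal block (0.138) and in 11 of 12 leave-out fits, the exception being that without negative replicate 1.

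Receptor chaperones and co-regulators had 11 of 22 higher and 1 lower in GPR35-positive cells (median 0.44, beside 18.5% higher and a median of -0.05 over all genes). Hspa8 and Hsp90aa1, of the folding machinery that holds the empty receptor, were at 2954 ± 270.3 against 1603 ± 301.6 CPM and at 950.5 ± 143.0 against 584.6 ± 115.8 CPM. St13, a cofactor of that machinery, was at 87.8 ± 7.17 against 62.5 ± 8.21 CPM. The count of higher genes was 2 with library size alone, 5 with upper-quartile scaling, and lowest among the leave-out fits at 2 without replicate 3. Over all genes the higher calls also fell in these fits, to 1692, 2154 and 1572, beside 2617 in the main fit. Hsp90aa1 lost its call without replicate 3 or 4 and St13 without replicate 2 or 3 or positive replicate 4. Fkbp4, the co-chaperone that competes with Fkbp5 and is also listed among the induced genes, was lower (80.7 ± 15.99 against 120.0 ± 19.8 CPM), a call lost in 9 of 12 leave-out fits (adjusted p from 0.0530 to 0.131).

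Among the targets, genes known to be induced by glucocorticoids moved in both directions. Of 35 tested, besides the members, 15 were higher, 8 lower and 12 did not pass (median 0.47). Over all tested genes 18.5% were higher and 19.5% lower, with a median of -0.05. The 4 with the smallest p were Il1r2, Mt2, Rgs2 and Sgk1. Il1r2, the interleukin-1 decoy receptor, was at 88.0 ± 35.4 against 6.19 ± 1.92 CPM (log2 3.83 ± 0.37, edgeR adjusted p = 1.81e-04), and Mt2, a metallothionein, at 4.90 ± 1.49 against 33.0 ± 7.17 CPM (-2.75 ± 0.28, adjusted p = 2.23e-04). Mt1, the other metallothionein of the list, was at 205.9 ± 26.9 against 154.0 ± 36.6 CPM and did not pass (log2 0.42, edgeR adjusted p = 0.116). Rgs2, a regulator of G protein signalling, was at 1376 ± 209.3 against 264.5 ± 79.8 CPM, and the kinase Sgk1 at 807.0 ± 223.6 against 145.0 ± 37.1 CPM. Many genes of this list also answer to other signals: Dusp1, Zfp36 and Tnfaip3, induced by inflammatory stimuli too, were higher, and Klf9 and Pik3ip1 were lower. They were picked from the 15 higher and 8 lower genes after their values were seen, and the signal behind any of them was not tested. Txnip was at 688.0 ± 84.4 against 677.8 ± 115.8 CPM and did not pass. With identity scaling 1 gene of the list, Il1r2, was higher and 27 were lower, beside 0.451% higher and 87.4% lower over all tested genes. Without replicate 3, 9 were higher, and without replicate 4, 5 were lower. Over all genes 1572 were higher without replicate 3, beside 2617 in the main fit. Without replicate 4, 1680 of all genes were lower, beside 2769. Mertk is also among the macrophage markers, and Ctgf and Snai2, which were lower, are known from stromal cells, whose markers summed lower in positive libraries. The part of cell content in these counts was not tested.

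**Figure D5:**
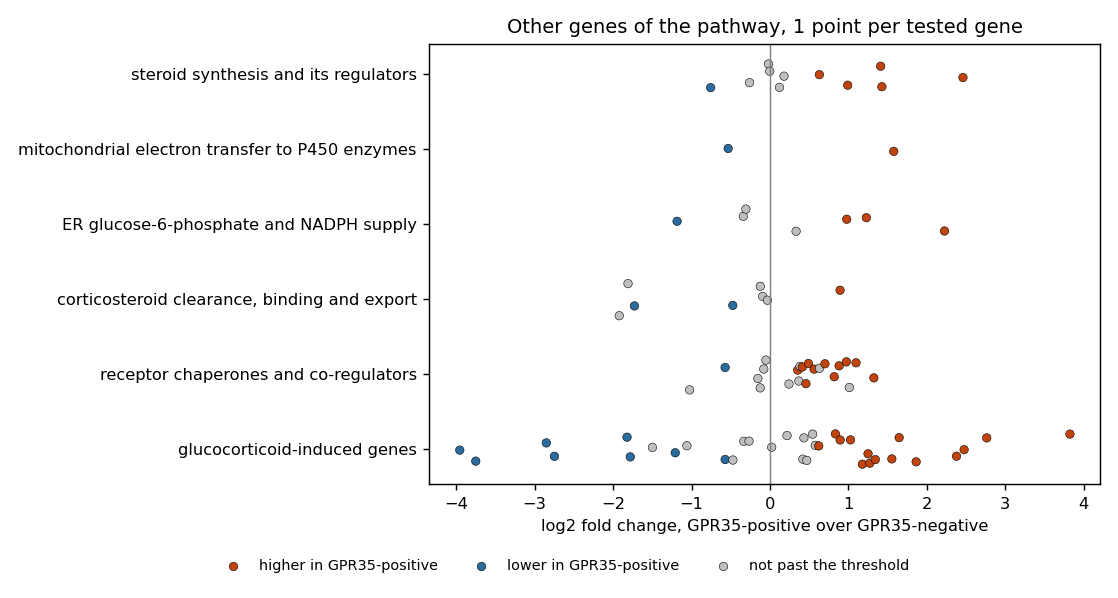
Log2 fold change (x axis, GPR35-positive over GPR35-negative) of every tested gene of 6 pathway lists besides the 9 members, coloured by the edgeR call at an adjusted p under 0.05. Glucocorticoid-induced genes spread to both sides, with 15 higher and 8 lower, and receptor chaperones and co-regulators had 11 higher and 1 lower.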

How the data were processed

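The authors deposited 1 table of raw counts, with a column per library and each gene's length. The submitters' processing notes name the build mm10 with STAR 2.5.2a and R 3.4.2; the counting tool is not given in the sources used here. Libraries were made with SMART-Seq v4 and Nextera XT, per the labels' protocols, a route that marks no strand and uses no molecular identifiers, so overlapping genes share reads. Of 14980 rows, 9 without a symbol were left out. Coordinates and promoters are RefSeq GRCm38.p6, matched by Entrez ID.

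Counts were tested with edgeR 4.0.16 (limma 3.58.1, R 4.3.3): filterByExpr (minimum count 10, minimum total 15), TMM, robust quasi-likelihood F-test without a block, Benjamini-Hochberg over all tested genes, threshold 0.05. SE is the log2 value divided by the root of F. Levels per length divide CPM by the deposited gene length, in other words CPM per kb. Ratios used log2 CPM with a prior count of 2, and left out Hsd11b2 for its counts of 0. Summed marker levels leave out the genes that the table does not list. The test was also run on simulated counts, with an outcome that is not reported here and is not used as evidence.

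The labels give each animal's number to a positive and a negative library, so the numbers pair the samples; deviations of paired libraries correlated across genes at 0.206, 0.206, 0.431 and 0.0637. The block fit was an alternative. Other alternatives were RLE, library-size, upper-quartile and identity scaling (20 macrophage markers), 2 filters, DESeq2 1.42.0, limma voom, thinning to the smallest total, a fit that was not robust, and fits without 1 animal or 1 library. Libraries of a group were not copies (smallest chi-square per degree of freedom 26.8). The members and lists were chosen with earlier results of these data known. Genes named were the members, Gpr35, 1 marker per cell type, up to 4 called genes with the smallest p of each list, and the 3 closest profiles for 4 members; others were chosen after their values were seen. Some genes that the rule names, and sequences of genes on chromosome 18, are not reported here, though counts over lists include them.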

Additional observations from a re-analysis of the deposited data

How the results depend on the processing

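Hsd11b1 and Fdx1 stayed lower and past the threshold in each of 25 alternative fits. The replicate block changed the call of none of the 9 genes: it gave -5.01 for Hsd11b1, 0.81 for H6pd, -1.05 for Fdx1 and -0.51 for Fkbp5 (edgeR adjusted p = 3.86e-04, 9.24e-03, 7.70e-03 and 0.111), with 5585 genes called beside 5386. Leaving out animals or libraries gave 3284 to 5966 called genes, 0 to 1 members higher, and log2 fold changes from -2.13 to 0.45 for Hsd11b2, -0.17 to 0.41 for Fdxr, -0.060 to 0.34 for Nr3c1 and -0.044 to 0.093 for Tsc22d3. The count was 3284 without replicate 3 and 3304 without replicate 4; the cause was not tested. With library size alone 0 members were higher, and Fdxr was at -0.23, Nr3c1 at -0.15, Tsc22d3 at -0.28 and Per1 at -0.034. Upper-quartile scaling gave -0.070 for Fdxr, -0.0058 for Nr3c1 and -0.13 for Tsc22d3, and the filter of 5 CPM -0.013 for Fdxr and -0.075 for Tsc22d3. Tsc22d3 was at -0.020 with RLE scaling, -0.020 with DESeq2, -0.015 with DESeq2 and the block, and -0.014 after thinning. None of these values passed the threshold.

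Identity scaling, which sets the macrophage markers level, called 12454 genes (64 higher, 12390 lower), with 0 members higher and 9 lower; with the replicate block it called 11782 genes (88 higher, 11694 lower), with 0 and 8. The medians of all genes were -2.72 and, with the block, -2.48. Values that turned negative by this common shift are given first without and then with the block. They were H6pd -1.81 and -1.66, Fdxr -2.76 and -2.27, Nr3c1 -2.41 and -2.30, Tsc22d3 -2.60 and -2.47, and Per1 -2.28 and -2.23. Others were Csf1r -0.19 and -0.17, Cyp27a1 -0.64 and -0.63, G6pdx -1.60 and -1.48, Pgd -1.37 and -1.21, Hsp90aa1 -1.89 and -1.77, Hspa8 -1.70 and -1.58, and St13 -2.14 and -1.98. Stard3 was at -1.51 and -1.45, Srd5a3 at -1.68 and -1.56, Slc37a2 at -0.094 and -0.052, Rgs2 at -0.12 and -0.054, and Sgk1 at -0.30 and -0.0078. Of the 49 called pathway genes outside the members, 26 lost their call in at least 1 other alternative and 0 changed sign there. A prior count of 0.5 moved each ratio by less than the spread between replicates. Depth limits Hsd11b2, Star and Cyp11a1, which had under 120 counts in every library.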
